A study of Arabidopsis thaliana with 8 samples.

Results

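The cysteine-rich receptor-like kinases (CRKs) are a family of plant receptor kinases, and their transcript levels are given here across 4 Arabidopsis thaliana genotypes. The members were chosen by locus identifier alone, as loci of the family in the numbering CRK1 to CRK46, a rule that uses no measured value. The set need not hold every numbered CRK. The family itself, like the gene lists further below, was chosen with earlier results of these data known. The members are 44 genes, beside 18333 genes listed in any of the deposited tables. Of the 44, 42 were matched to a name in RefSeq, and AT1G70740 and AT4G28670 are given by locus. RefSeq names CRK1 as RKF2, CRK9 as EP1, CRK17 as EMB1290 and CRK45 as ARCK1.

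A typical CRK has an outer part built of DUF26 domains, each marked by spaced cysteines, then a membrane-spanning helix and a serine/threonine kinase inside the cell. Many CRK genes are known to respond to pathogens, salicylic acid and reactive oxygen in leaves. Overexpression of CRK4, CRK5, CRK19 or CRK20 is known to cause cell death resembling the hypersensitive response. CRK4, CRK6 and CRK36 are linked to signalling by the flagellin receptor FLS2, and CRK28 to its co-receptor BAK1. The ligands of most members are not known.

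RNA came from untreated rosettes of 28-day-old plants of the ecotype Col-0, with 2 libraries for each genotype. WT is the control, and the line pbl19/pPBL19C3A-GFP-HA (the PBL19C3A line) expresses a tagged PBL19C3A protein in the pbl19 mutant. The kinase PBL19 belongs to the receptor-like cytoplasmic kinases, and the labels' extraction protocol places the construct under the PBL19 promoter. The line sid2 pbl19/pPBL19:PBL19C3A-GFP-HA (the sid2 line) also carries sid2, a mutation of the salicylic acid synthesis gene ICS1. The line eds1 pbl19/pPBL19:PBL19C3A-GFP-HA (the eds1 line) also carries eds1, a mutation of the immune regulator gene EDS1. All 3 transgenic lines therefore share pbl19 and the construct, and the labels do not say whether they share 1 insertion. The labels give constitutive immunity as the phenotype of the PBL19C3A and sid2 lines and a WT phenotype for the eds1 line. Since the series' design text speaks of 1 biological replicate, the 2 libraries of a genotype may be technical, and p-values then measure only the spread between these libraries.

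Library totals ran from 37373977 counts (PBL19C3A line, library 2) to 51202472 counts (sid2 line, library 1). The PBL19 transcript itself differed between the lines. Its mean level was 8.90 ± 2.13 FPKM (the authors' level scaled for transcript length and library depth; SD, n = 2) in WT and 1917 ± 396 FPKM in the PBL19C3A line. It was 791 ± 233 FPKM in the sid2 line and 51.5 ± 19.2 FPKM in the eds1 line. CRK differences between transgenic lines therefore go with differences in the PBL19 transcript, whose part in them was not tested. All 4 rosette leaf markers were measured and fell in the PBL19C3A line, their summed level being 38086 and 35140 FPKM in WT and 21751 and 23834 FPKM there. All 5 markers of guard cells, epidermis and phloem also fell, from sums of 169 and 171 FPKM in WT to 111 and 107 FPKM. None of 3 root markers was listed, and 1 of 3 flower markers was listed, in the table of the sid2 line, at up to 2.11 FPKM. In whole rosettes, fewer cells of a type and less RNA per cell cannot be told apart, and the part of these marker changes in the CRK results was not tested. The 2 eds1 libraries differed from each other in WRKY53, with 26.2 and 0.833 FPKM, and in WRKY40, with 54.5 and 9.20 FPKM. WRKY18, with 11.8 and 18.4 FPKM, and WRKY60, with 0.972 and 1.42 FPKM, were instead lower in eds1 library 1.

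Each deposited table pairs WT with 1 transgenic line and lists a gene only where at least 2 of its 4 libraries reached 1 CPM (counts scaled to the library total). Of the 44 members, 37 were listed beside WT in the table of the PBL19C3A line. The table of the sid2 line listed 36 members, all but CRK26 of those 37, and that of the eds1 line listed 25. RKF2, CRK25, CRK27, CRK31, CRK32, CRK33 and AT4G28670 were in no table and have no value here. In both WT libraries 23 members reached 1 CPM. The other 14 listed members were below 1 CPM in at least 1 WT library, and 10 of them were below it in both. Those 10 could be listed only where both libraries of a transgenic line reached 1 CPM, so they had to be higher there. Counts that are read against all genes therefore use the 23 members and the 16950 genes that meet the same WT limit.

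In WT the highest CRK levels were those of CRK21 with 31.4 and 34.3 FPKM, CRK40 with 20.9 and 35.9 FPKM and CRK10 with 16.0 and 34.2 FPKM. These 3 ranges overlap, so their order is not separated by the spread between libraries. In the PBL19C3A line CRK4 led with 179 and 190 FPKM, followed by ARCK1, a kinase known from abscisic acid and osmotic stress signalling, with 80.7 and 85.6 FPKM. The 2 ranges do not overlap. Over all listed members the summed level was 205 and 298 FPKM in WT, 1060 and 1148 FPKM in the PBL19C3A line, and 593 and 561 FPKM in the sid2 line. It was 279 and 268 FPKM in the eds1 line, which lists fewer members. In 30 of the 37 members WT library 1 was lower than WT library 2, a share of 81.1%, against 51.2% of all genes.

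**Figure D1:**
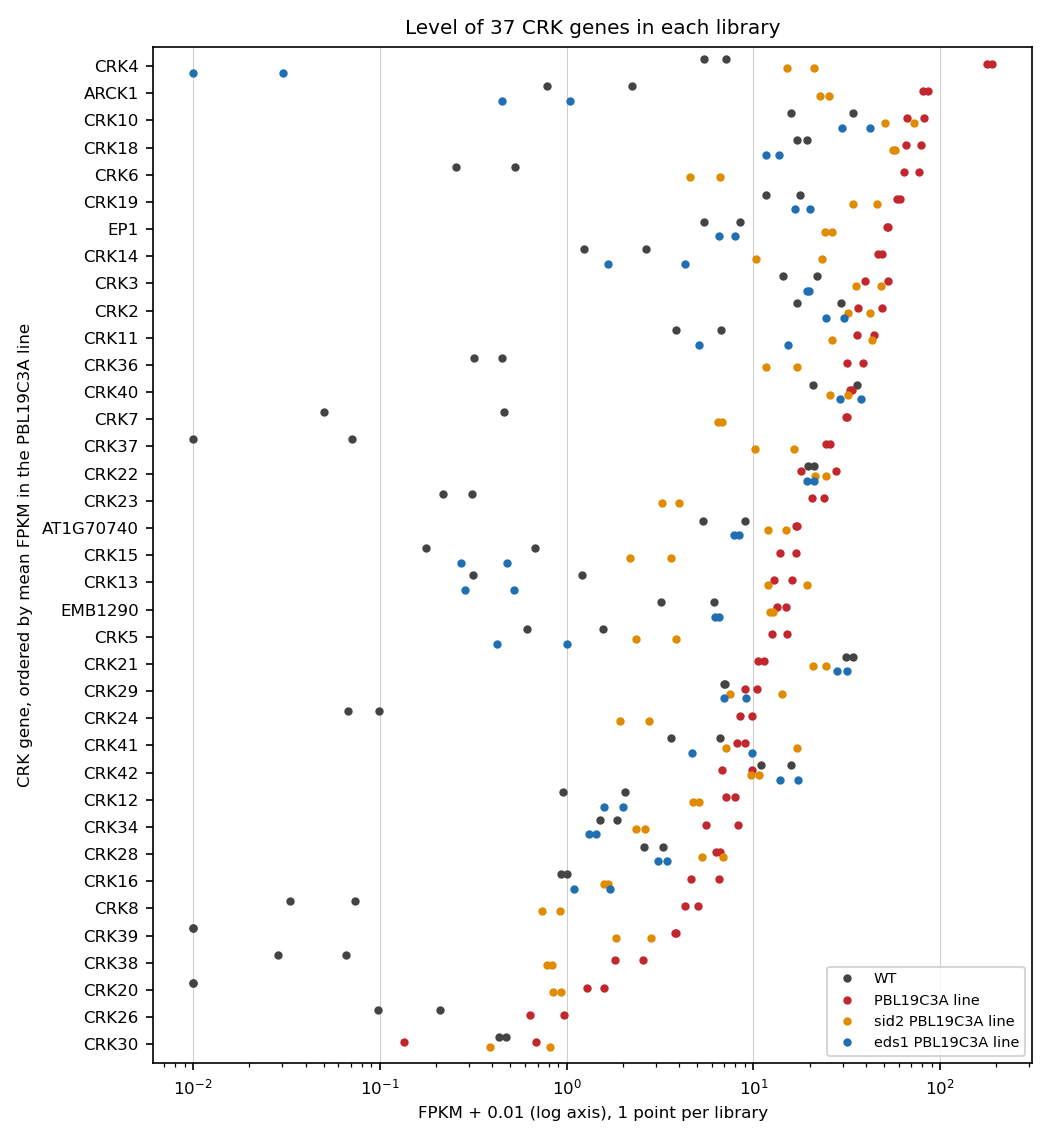
Level of each of the 37 listed CRK genes in every library, as FPKM + 0.01 on a log axis, with genes ordered by their mean in the PBL19C3A line and 1 point per library. The PBL19C3A points lie to the right of the WT points for most genes, with CRK21 and CRK42 on the other side, and the eds1 points of CRK4 lie at the left edge.

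The first comparison asks how the PBL19C3A line differed from WT. CRK genes were mostly higher in the PBL19C3A line: 29 of the 37 tested members rose, 2 fell and 6 did not pass the threshold (edgeR quasi-likelihood test, adjusted p below 0.05). Over all 18048 genes tested, 21.4% rose and 14.9% fell. Among the 23 members that meet the WT limit, 16 rose, or 69.6%, and 2 fell, or 8.70%. Of the 16950 genes under the same limit 18.7% rose and 15.8% fell, so the share of risen CRK genes was above the background and that of fallen ones was below it. The median log2 fold change was 1.57 over the 23 members and -0.01 over the 16950 genes.

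The largest increases were those of genes that were near or at 0 in WT. CRK39 (AT4G04540) had 0 counts in both WT libraries, and 3.80 and 3.82 FPKM in the PBL19C3A line. CRK20 (AT4G23280), whose overexpression is linked to cell death, also had 0 counts in both WT libraries, and 1.28 and 1.58 FPKM in the PBL19C3A line. Set against a floor of 3 counts over the 2 WT libraries, CRK39 was at least 244-fold higher and CRK20 at least 90.2-fold higher (counting error only). CRK37 (AT4G04500) had 0 and 0.0611 FPKM in WT and 24.6 and 25.8 FPKM in the PBL19C3A line, a log2 fold change of 9.38 ± 0.60 (edgeR, SE; adjusted p = 0.000182). That value rests on 0 and 7 WT counts, and it was 8.39 without WT library 1 and 14.26 without WT library 2, where it is fitted against 0 counts and is no bound. The test gives no SE, so each SE is the absolute log2 fold change divided by the square root of the F statistic. Near 0 counts such an SE can understate the uncertainty, as it does here. CRK36 and CRK38, the neighbours of CRK37, lie with it and CRK39 in a run of 4 CRK genes on chromosome 4, and all 4 rose. All 4 were below 1 CPM in both WT libraries, so they could be listed beside the PBL19C3A line only by being higher there. The direction of their change was therefore fixed in advance. CRK36 (AT4G04490), which is known to bind the kinase BIK1, had 0.308 and 0.441 FPKM in WT and 38.5 and 31.5 FPKM in the PBL19C3A line (log2 fold change 6.47 ± 0.30, edgeR adjusted p = 7.3e-05). CRK38 (AT4G04510) had 0.0185 and 0.056 FPKM in WT and 1.81 and 2.57 FPKM in the PBL19C3A line (log2 fold change 5.79 ± 0.50, edgeR adjusted p = 0.000462). The CRK38 value was 5.21 without WT library 1 and 6.75 without WT library 2. For none of these genes did the libraries of the groups overlap. As each was below 1 CPM in both WT libraries, CRK20 among them, the listing rule already required this.

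CRK6 and CRK7, which are linked to the response to extracellular reactive oxygen, stand beside each other in the chromosome 4 array described below. CRK6 (AT4G23140) had 0.247 and 0.521 FPKM in WT and 63.9 and 76.6 FPKM in the PBL19C3A line, a log2 fold change of 7.44 ± 0.38 (edgeR, adjusted p = 9.63e-05). CRK7 (AT4G23150) had 0.0405 and 0.45 FPKM in WT and 31.4 and 31.7 FPKM in the PBL19C3A line (log2 fold change 6.95 ± 0.66, edgeR adjusted p = 0.000658). In both genes WT library 1 was the lowest and the PBL19C3A libraries stood far above WT. CRK8 (AT4G23160) had 0.0231 and 0.0634 FPKM in WT and 4.27 and 5.02 FPKM in the PBL19C3A line (log2 fold change 6.62 ± 0.37, edgeR adjusted p = 0.000119). CRK23 (AT4G23310) had 0.209 and 0.301 FPKM in WT and 20.5 and 23.8 FPKM in the PBL19C3A line (log2 fold change 6.36 ± 0.24, edgeR adjusted p = 5.19e-05). CRK24 (AT4G23320) had 0.0886 and 0.0573 FPKM in WT and 8.45 and 9.88 FPKM in the PBL19C3A line (log2 fold change 6.79 ± 0.37, edgeR adjusted p = 0.000108). Without WT library 2 the log2 fold changes of CRK6, CRK7 and CRK8 were 8.07, 9.50 and 7.37, and that of CRK7 was 6.06 without WT library 1. These 5 genes all passed from below 1 FPKM in WT to between 4.27 and 76.6 FPKM. Of them, CRK7, CRK8, CRK23 and CRK24 were below 1 CPM in both WT libraries, so their listing already required a higher level. The transcripts of CRK6 and CRK8 share 27.3% and 14.1% of their 50-base stretches with another transcript, mostly each other, so the division of reads between them is uncertain.

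Other risen members had a higher WT level. CRK4 (AT3G45860), on chromosome 3, had 5.43 and 7.09 FPKM in WT and 179 and 190 FPKM in the PBL19C3A line, a log2 fold change of 4.84 ± 0.26 (edgeR, adjusted p = 6.59e-05). ARCK1 (AT4G11890) had 0.777 and 2.22 FPKM in WT and rose by a log2 fold change of 5.70 ± 0.54 (edgeR, adjusted p = 0.000422). CRK13 (AT4G23210), whose overexpression is known to raise salicylic acid and resistance to Pseudomonas, had 0.306 and 1.19 FPKM in WT and 16.0 and 12.9 FPKM in the PBL19C3A line (log2 fold change 4.20 ± 0.58, edgeR adjusted p = 0.0018). CRK28 (AT4G21400), which is known to associate with BAK1, had 2.59 and 3.26 FPKM in WT and 6.27 and 6.62 FPKM in the PBL19C3A line. Its log2 fold change of 1.10 ± 0.18 (edgeR, adjusted p = 0.00384) was the smallest among the 29 members that rose. Without WT library 1 or 2 the log2 fold change was 5.11 or 6.65 for ARCK1 and 3.51 or 5.48 for CRK13, with both calls kept. Without library 2 of the PBL19C3A line the calls of CRK10 and CRK26 were lost, and that of CRK26 was also lost without WT library 2.

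CRK21 and CRK42 fell. CRK21 (AT4G23290), the member with the highest mean level in WT, had 31.4 and 34.3 FPKM in WT and 10.6 and 11.4 FPKM in the PBL19C3A line, with no overlap. Its log2 fold change was -1.61 ± 0.14 (edgeR, adjusted p = 0.000271), and it passed the threshold under every alternative setting tried for this comparison. CRK42 (AT5G40380) had 10.98 and 15.9 FPKM in WT and 9.83 and 6.79 FPKM in the PBL19C3A line, with the groups close to each other. Its log2 fold change of -0.74 ± 0.24 (edgeR, adjusted p = 0.0462) did not pass without WT library 2, without PBL19C3A library 2 or without either sid2 library, nor with only the 2 genotypes fitted, nor with limma on the FPKM values.

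Among the members without a call, 3 had at least 10 FPKM in WT. CRK2 (AT1G70520), a kinase known to phosphorylate the oxidase RBOHD, had 17.2 and 29.6 FPKM in WT and 36.2 and 48.9 FPKM in the PBL19C3A line. The ranges do not overlap, and the log2 fold change of 0.83 ± 0.29 missed the threshold (edgeR, adjusted p = 0.0594) but passed it with DESeq2 and with limma on the FPKM values. CRK22 (AT4G23300) had 21.0 and 19.6 FPKM in WT and 17.9 and 27.8 FPKM in the PBL19C3A line (log2 fold change 0.13 ± 0.21, edgeR adjusted p = 0.662). CRK40 (AT4G04570) had 20.9 and 35.9 FPKM in WT and 33.0 and 33.7 FPKM in the PBL19C3A line (log2 fold change 0.20 ± 0.26, edgeR adjusted p = 0.588). For CRK22 and CRK40 the WT and PBL19C3A ranges overlap. CRK29, CRK30 and CRK41 also gave no call, with log2 fold changes of 0.42, -0.22 and 0.70.

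In the RefSeq annotation of TAIR10.1, 38 of the 44 members lie on chromosome 4, and 20 of them form 1 array from CRK5 to CRK24. The array is interrupted once, by 1 other protein-coding locus between CRK19 and CRK20. Of its 20 genes, 18 rose in the PBL19C3A line, while CRK21 fell and CRK22 gave no call. The WT limit was met by 12 of the 20, of which 10 rose, against 18.7% of the 16950 genes under the same limit. The 8 below it, CRK6, CRK7, CRK8, CRK13, CRK15, CRK20, CRK23 and CRK24, are part of the 14 members described above. CRK21 and CRK22 are neighbours that point away from each other, with 688 bases between their annotated starts. On both sides of this pair, CRK20 and CRK23 were among the most strongly raised members. CRK13 and CRK22 share 15.1% and 14.3% of their 50-base stretches with another transcript, mostly each other, so reads may be divided uncertainly between them too. The same holds for CRK16 with 33.5% and EMB1290 with 25.1%, and for CRK29 with 15.3%, shared with CRK28.

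**Figure D2:**
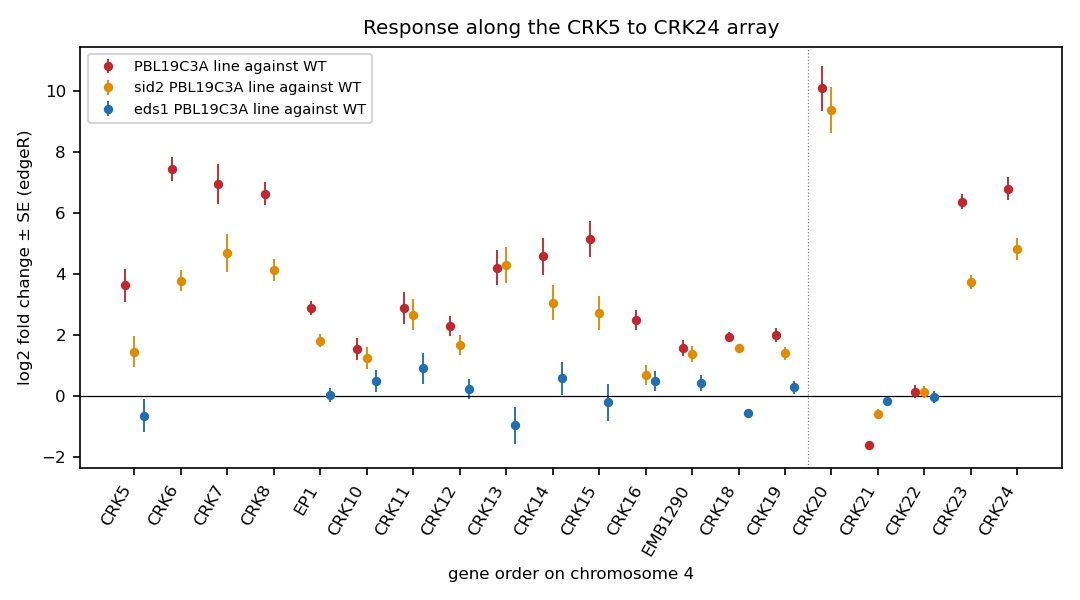
Log2 fold change against WT (edgeR, bars are SE) of the 20 CRK genes of the chromosome 4 array, in gene order, for the 3 transgenic lines, with a dotted line where 1 other locus interrupts the array. CRK21 lies below 0 in the PBL19C3A and sid2 lines and CRK22 near 0, while the other 18 genes lie above 0 in the PBL19C3A and sid2 lines. The CRK20 points are fitted values against WT libraries with 0 counts and are no bound, and genes absent from the eds1 table have no eds1 point. The SE are derived from the F statistic.

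Upstream sequence is shown for 5 members that stand for the patterns above: CRK4 as the highest CRK in the PBL19C3A line, CRK6 and CRK37 as strongly raised members of the separate runs, and the CRK21 and CRK22 pair as the exceptions. Each is the 250 bases before the annotated start, 5′ to 3′ on the gene's strand, from RefSeq TAIR10.1. The submitters' processing notes name TAIR10, and the deposited tables hold no coordinates. Capitals mark the W-box, TTGACC or TTGACT on either strand, a motif bound by WRKY transcription factors.
CRK4, chr3:16866262-16866511, minus strand: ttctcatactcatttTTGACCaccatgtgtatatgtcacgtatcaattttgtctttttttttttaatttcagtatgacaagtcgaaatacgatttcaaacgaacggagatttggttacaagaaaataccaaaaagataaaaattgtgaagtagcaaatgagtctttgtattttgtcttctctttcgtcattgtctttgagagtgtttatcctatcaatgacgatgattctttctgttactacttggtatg
CRK6, chr4:12121119-12121368, plus strand: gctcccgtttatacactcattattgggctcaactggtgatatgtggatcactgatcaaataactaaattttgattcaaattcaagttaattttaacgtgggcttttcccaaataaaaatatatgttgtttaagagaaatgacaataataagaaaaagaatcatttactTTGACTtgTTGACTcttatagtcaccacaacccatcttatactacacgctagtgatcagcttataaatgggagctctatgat
CRK37, chr4:2238120-2238369, plus strand: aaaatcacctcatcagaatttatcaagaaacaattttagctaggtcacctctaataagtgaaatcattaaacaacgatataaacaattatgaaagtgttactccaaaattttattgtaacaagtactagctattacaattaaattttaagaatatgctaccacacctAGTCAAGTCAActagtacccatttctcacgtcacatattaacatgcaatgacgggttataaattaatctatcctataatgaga
CRK21, chr4:12180937-12181186, minus strand: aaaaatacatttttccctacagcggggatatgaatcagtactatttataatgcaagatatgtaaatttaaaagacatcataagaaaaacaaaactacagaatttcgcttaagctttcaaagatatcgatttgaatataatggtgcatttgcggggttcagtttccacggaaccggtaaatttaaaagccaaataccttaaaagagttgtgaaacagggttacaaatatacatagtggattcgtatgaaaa
CRK22, chr4:12181375-12181624, plus strand: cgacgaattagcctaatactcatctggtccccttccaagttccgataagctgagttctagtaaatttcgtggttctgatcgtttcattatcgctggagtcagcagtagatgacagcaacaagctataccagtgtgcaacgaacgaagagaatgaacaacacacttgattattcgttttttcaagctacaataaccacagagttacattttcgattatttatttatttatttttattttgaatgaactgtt
The CRK4 window holds 1 W-box, and those of CRK6 and CRK37 hold 2 each, which overlap by 1 base in CRK37. The CRK21 and CRK22 windows hold 0. Risen members whose windows also hold 0, such as ARCK1, CRK7, CRK10 and CRK13, are not shown.

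Of the 44 member windows, 27 hold a W-box, or 61.4%, against 28.4% of 27437 windows of protein-coding genes. At least 2 W-boxes stood in 11 member windows, and in 6.18% of all windows. Overlapping sites counted separately. Of the 29 risen members 19 have a W-box and 10 have at least 2, and of the 6 members without a call 2 have one. Of the 7 members with no value 5 have one, so a W-box also occurs upstream of members that were not listed. CRK42, 1 of the 2 fallen members, has a W-box. The TGA core TGACG, searched on both strands, was in 14 member windows, or 31.8%, and in 18.6% of all windows. Both motifs contain TGAC, but no W-box as spelled here contains the TGA core, since the next base differs. These are counts of letters in a window, and neighbouring genes of the array are close relatives and not independent.

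The protein sequences encoded in the reference were read for 43 members. RKF2 was left out because its annotated coding sequence is not an open frame in the genome. The DUF26 motif, a cysteine, 8 residues, a cysteine, 2 residues and a cysteine, occurs at 2 places in 37 of the 43 proteins. CRK24 and CRK27 have 1 such motif, CRK23 has 3 and EMB1290 has 4. ARCK1 and AT1G70740 have 0. ARCK1 is encoded as a protein of 354 residues, and it was the member with the second highest level in the PBL19C3A line. EP1 has 265 residues from 1 exon, against 627 to 700 residues in the 27 members of 7 exons and 2 motifs. EP1 rose from 5.40 and 8.50 FPKM in WT to 52.7 and 52.1 FPKM in the PBL19C3A line (log2 fold change 2.87 ± 0.23, edgeR adjusted p = 0.000212).

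The second comparison asks how the sid2 line differed from the PBL19C3A line. Their mean PBL19 transcript levels were 791 and 1917 FPKM, and the part of this difference was not tested. Against the PBL19C3A line, 9 of 36 members were lower in the sid2 line and 1, CRK21, was higher (edgeR, adjusted p below 0.05), where 1.98% of all 17812 genes were lower and 0.651% higher. Among the 23 members that meet the WT limit 4 were lower and 1 higher, where 1.75% of the 16950 genes were lower and 0.661% higher. The median log2 fold change was -0.29 over the 23 members and 0.00 over the 16950 genes. The count of 10 calls fell to 3 and 2 without PBL19C3A library 1 or 2, and to 4 and 3 without sid2 library 1 or 2. The calls of CRK4 and CRK23 held whichever of the 8 libraries was left out.

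CRK6 had 63.9 and 76.6 FPKM in the PBL19C3A line and 4.57 and 6.62 FPKM in the sid2 line, the largest decrease among the members (log2 fold change -3.67 ± 0.31, edgeR adjusted p = 0.00668). The call of CRK6 was lost only without PBL19C3A library 2. CRK4 had 179 and 190 FPKM in the PBL19C3A line and 15.2 and 21.1 FPKM in the sid2 line (log2 fold change -3.36 ± 0.25, edgeR adjusted p = 0.0027). CRK23 fell from 20.5 and 23.8 FPKM to 3.21 and 3.96 FPKM (log2 fold change -2.64 ± 0.19, edgeR adjusted p = 0.00411). In all 3 genes both sid2 libraries lay below both PBL19C3A libraries and above both WT libraries. For CRK23, below 1 CPM in both WT libraries, the listing already required the latter. CRK8 stood at 0.731 and 0.913 FPKM in the sid2 line and CRK24 at 2.75 and 1.91 FPKM, with log2 fold changes against the PBL19C3A line of -2.51 and -1.99. Both sid2 libraries of these genes also lay above both WT libraries, which their listing required, as both were below 1 CPM in both WT libraries. CRK36 had 38.5 and 31.5 FPKM in the PBL19C3A line and 11.6 and 17.0 FPKM in the sid2 line (log2 fold change -1.31). CRK16 had 4.64 and 6.50 FPKM in the PBL19C3A line and 1.65 and 1.58 FPKM in the sid2 line, and CRK34 had 5.57 and 8.25 FPKM and 2.61 and 2.34 FPKM (log2 fold changes -1.80 and -1.49). EP1 was the other lower member, with 24.1 and 26.4 FPKM in the sid2 line (log2 fold change -1.07). In each of these 6 genes both sid2 libraries lay below both PBL19C3A libraries (edgeR, adjusted p from 0.0143 to 0.048). The calls of the 6 were each lost without any 1 of the 4 libraries compared. Those of CRK16 and CRK36 were also lost without either WT library, and that of EP1 without either eds1 library. With only the 2 genotypes fitted, the calls of CRK34 and CRK36 were lost. The EP1 call was lost with RLE scaling, and those of EP1 and CRK36 with limma on log2(FPKM + 0.1).

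CRK21 had 10.6 and 11.4 FPKM in the PBL19C3A line and 20.8 and 24.6 FPKM in the sid2 line (log2 fold change 1.02 ± 0.13, edgeR adjusted p = 0.0167). The sid2 libraries thus lay between the PBL19C3A and the WT libraries, with no overlap on either side. This call was lost without either PBL19C3A library or without sid2 library 2.

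Against WT, 23 of the 36 members were higher in the sid2 line and 1, CRK21, was lower (edgeR, adjusted p below 0.05), where 12.1% of all 17991 genes were higher and 4.05% lower. Among the 23 members that meet the WT limit 11 were higher and 1 lower, where 9.72% of the 16950 genes were higher and 4.3% lower. Of the 29 members that rose in the PBL19C3A line, 28 have a value in the sid2 line, and 23 of these were still higher than WT there. Of the 28, 9 passed the threshold as lower in the sid2 line against the PBL19C3A line, and 7 of these 9 were also still higher than WT. Among the members still higher, CRK7, CRK8, CRK20, CRK23, CRK24 and CRK36 to CRK39 were below 1 CPM in both WT libraries. They could be listed beside the sid2 line only by being higher there, so these counts of members still higher are partly fixed by the listing. The level in the sid2 line was between 7.96% (CRK6) and 108% (CRK13) of that in the PBL19C3A line, with a median of 44.5%. CRK13 had 11.99 and 19.2 FPKM in the sid2 line, a range that contains both PBL19C3A libraries. In total 7 of the 28 stood under 25% of the PBL19C3A level, while 8 stood at 75% or more. The 28 were chosen for being high in the same PBL19C3A libraries, and the shares among all genes that rose there were not computed. CRK39 and CRK20, with 0 counts in WT, were at least 147-fold and at least 56.2-fold higher in the sid2 line (floor of 3 counts over the WT libraries).

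**Figure D3:**
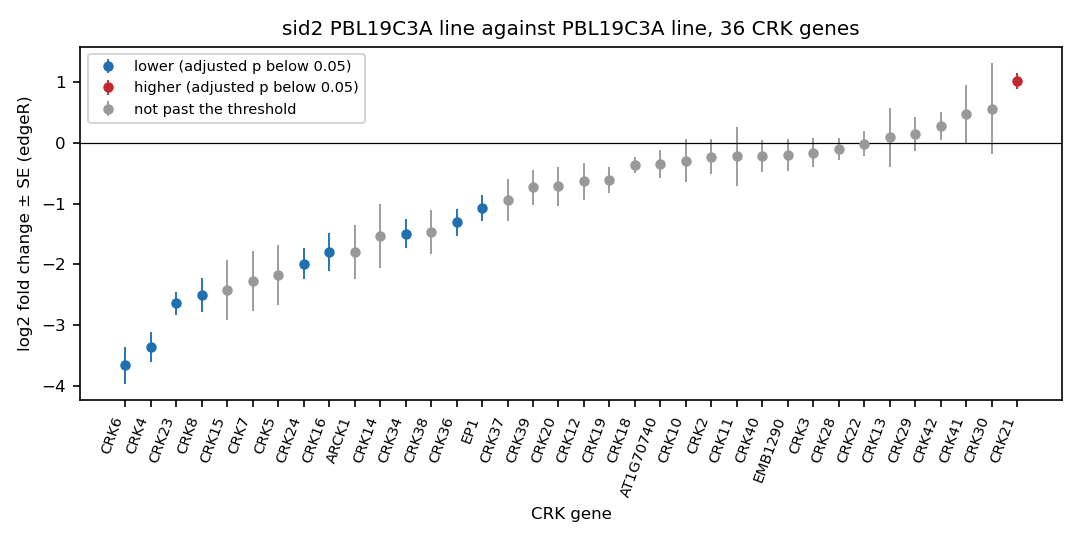
Log2 fold change of 36 CRK genes in the sid2 line against the PBL19C3A line (edgeR, bars are SE), ordered by size, with colours for genes past the threshold. CRK6 and CRK4 lie lowest at -3.67 and -3.36, and CRK21 highest at 1.02. The SE are derived from the F statistic.

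A further comparison asks how the eds1 line differed from the PBL19C3A line. Their mean PBL19 transcript levels were 51.5 and 1917 FPKM, and the part of this difference was not tested. Against the PBL19C3A line, 17 of 25 members were lower in the eds1 line and 2, CRK21 and CRK42, were higher (edgeR, adjusted p below 0.05), where 16.2% of all 17358 genes were lower and 12.0% higher. Among the 23 members that meet the WT limit 15 were lower and 2 higher, where 16.1% of the 16950 genes were lower and 12.3% higher. Of the 18 risen members with a value in the eds1 line, 17 passed the threshold as lower there against the PBL19C3A line. The 18 were chosen for being high in the same PBL19C3A libraries. The share among all genes that rose was not computed, so this count is not set against a background. CRK10 had 66.8 and 81.5 FPKM in the PBL19C3A line and 42.3 and 29.9 FPKM in the eds1 line, with no overlap. Its log2 fold change of -1.04 ± 0.36 missed the threshold (edgeR, adjusted p = 0.0651) but passed it with DESeq2 and with only the 2 genotypes fitted. Without eds1 library 1, 15 members were lower and 2 higher, and without eds1 library 2, 12 were lower and 1 higher.

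The largest decrease was that of CRK4, from 179 and 190 FPKM in the PBL19C3A line to 0 and 0.0204 FPKM in the eds1 line. CRK4 is counted among the lower members above, and its place on chromosome 3 near EDS1 is described below. ARCK1 stood at 1.03 and 0.439 FPKM in the eds1 line, or 0.886% of its PBL19C3A level (log2 fold change -6.65 ± 0.58, edgeR adjusted p = 0.000389). CRK15 stood at 0.263 and 0.469 FPKM (log2 fold change -5.36 ± 0.59, edgeR adjusted p = 0.00101) and CRK13 at 0.277 and 0.514 FPKM (-5.17 ± 0.62, adjusted p = 0.00141). The ARCK1 value was -7.53 without eds1 library 1. For ARCK1, CRK15 and CRK13 the ranges of the eds1 line and WT overlap. CRK11, like WRKY53, was higher in eds1 library 1 than in library 2, with 15.2 and 5.09 FPKM. The 11 members listed for the PBL19C3A and sid2 lines but not for the eds1 line are CRK6, CRK7, CRK8, CRK20, CRK23, CRK24, CRK30 and CRK36 to CRK39. They have no eds1 value, and no fold change was computed for them there. If every gene that met the listing rule was listed, each was below 1 CPM in at least 1 eds1 library, and CRK6 and CRK30 in both.

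Against the sid2 line, 11 of 25 members were lower in the eds1 line and 0 were higher (edgeR, adjusted p below 0.05), where 7.02% of all 17397 genes were lower and 2.39% higher. Among the 23 members that meet the WT limit 9 were lower, where 6.87% of the 16950 genes were lower and 2.45% higher. Of the 25 members, 18 had an unadjusted p below 0.05, a count for which the share over all genes was not computed. CRK13 showed a log2 fold change of -5.26 ± 0.62 (edgeR, adjusted p = 0.00317), ARCK1 of -4.85 ± 0.54 (adjusted p = 0.00249) and CRK18 of -2.15 ± 0.14 (adjusted p = 0.000252). ARCK1 had 22.7 and 25.5 FPKM in the sid2 line, far above both eds1 libraries. CRK18 had 57.4 and 56.2 FPKM in the sid2 line and 13.6 and 11.6 FPKM in the eds1 line, both below WT with 17.2 and 19.4 FPKM, though the eds1 line and WT did not differ past the threshold (edgeR, adjusted p = 0.607). The remaining named genes differed without overlap as well. CRK15 had 3.61 and 2.16 FPKM in the sid2 line and 0.263 and 0.469 FPKM in the eds1 line (log2 fold change -2.93). CRK14 had 23.3 and 10.3 FPKM in the sid2 line and 4.28 and 1.66 FPKM in the eds1 line (log2 fold change -2.49). Without eds1 library 1 the ARCK1 and CRK14 values were -5.75 and -3.29, and without sid2 library 1 that of CRK14 was -1.78 and its call was lost. EP1 had 24.1 and 26.4 FPKM against 6.51 and 7.97 FPKM, and CRK12 had 5.07 and 4.74 FPKM against 2.00 and 1.57 FPKM (log2 fold changes -1.78 and -1.44). CRK4 had the largest decrease here too, from 15.2 and 21.1 FPKM in the sid2 line to 0 and 0.0204 FPKM in the eds1 line. Its place on chromosome 3 near EDS1 is described below. CRK3, CRK19 and CRK28 were the remaining lower members. The count of 11 was 5 without sid2 library 1, 7 without eds1 library 1 and 5 without eds1 library 2.

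The eds1 line and WT differed in 1 CRK gene, CRK4, which was lower in the eds1 line, while 0 of the 25 members were higher (edgeR, adjusted p below 0.05). Over all 17534 genes of this comparison 0.125% were lower and 0.0342% higher. At an unadjusted p below 0.05 stood 2 of the 25 members, where the share over all genes was not computed, and DESeq2 also called 1. CRK4 had 537 and 694 counts in WT and 0 and 2 counts in the eds1 line, or 5.43 and 7.09 FPKM against 0 and 0.0204 FPKM. The normalised WT level was 631 times that of the eds1 line, with a counting interval of 174 to 5215 (95%, exact, counting error only; edgeR adjusted p = 0.000299 for the difference). The call held whichever library was left out. In the sid2 line, whose construct has the same name, CRK4 was above WT (log2 fold change 1.48 ± 0.23, edgeR adjusted p = 0.0065), although that call was lost without WT library 1.

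CRK4 lies on chromosome 3, as does EDS1. Between the eds1 line and WT, 28 genes passed the threshold, of which 22 have a chromosome in RefSeq and 6 are loci that the files name newGene. Of the 22, 21 lie on chromosome 3 and 1 elsewhere. In the order of the 3457 tested genes of chromosome 3, the 21 lie within a stretch of 309 genes, in which CRK4 is number 2212 and EDS1 number 2347 from the chromosome's start. There were 134 tested genes between CRK4 and EDS1. A near absence like that of CRK4, with 1 CPM or more in both WT libraries and at most 3 counts in each eds1 library, was seen for 14 genes, and all 11 of them with a known chromosome lie on chromosome 3. The 6 tested genes nearest to CRK4 did not pass the threshold. A change that goes with the eds1 genotype and one that goes with the stretch of chromosome 3 around EDS1 cannot be told apart in these lines.

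**Figure D4:**
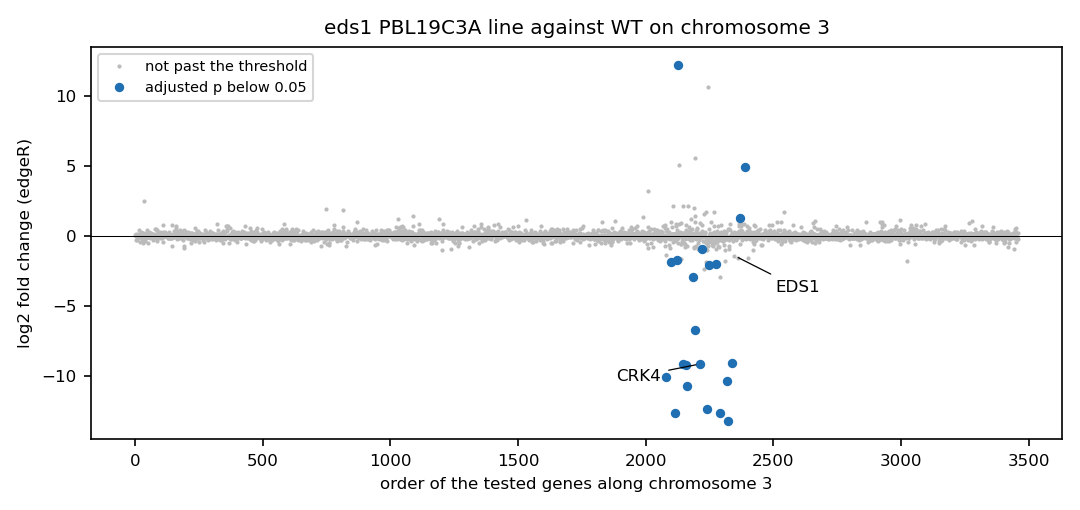
Log2 fold change of the eds1 line against WT (edgeR) for the 3457 tested genes of chromosome 3 in their order along it, with blue points for genes past the threshold. The 21 blue points lie in 1 stretch that also holds EDS1, and CRK4 is among the points near the bottom.

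Genes known to work with CRKs were read from short lists. Of 6 genes of the receptor complex and the oxidative burst, 4 rose in the PBL19C3A line against WT: BAK1 (log2 fold change 1.24 ± 0.16), its kin BKK1, named SERK4 in RefSeq (2.05 ± 0.31), BIK1 (1.86 ± 0.40) and RBOHD (1.47 ± 0.34; edgeR, adjusted p from 0.00131 to 0.0133). FLS2 and RBOHF gave no call. The BIK1 call was lost without either WT library, and that of RBOHD without WT library 1 or PBL19C3A library 1. BAK1, BKK1, BIK1 and RBOHD were also higher than WT in the sid2 line and lower in the eds1 line than in the PBL19C3A line. Of these 8 calls, only those of BAK1 and BKK1 in the eds1 line held whichever library was left out. Of 8 genes of the PDLP family, plasmodesmata-located proteins that share the DUF26 domain, 7 were measured. PDLP5, named HWI1 in RefSeq and known to close plasmodesmata in immunity, had 4.01 and 2.89 FPKM in WT and 23.5 and 23.6 FPKM in the PBL19C3A line (log2 fold change 2.72 ± 0.24, edgeR adjusted p = 0.000295). PDLP3 and PDLP6 fell, by 1.18 and 1.05 on the log2 scale, and the other 4 gave no call. The call of PDLP6 was lost without WT library 2 or PBL19C3A library 1. The median log2 fold change of the 7 was -0.75, against 0.02 over all genes.

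All 6 listed WRKY transcription factor genes, chosen as factors linked to defence receptor kinase genes, rose in the PBL19C3A line against WT (edgeR, adjusted p below 0.05). Their log2 fold changes ran from 2.99 ± 0.82 for WRKY40 to 4.96 ± 1.39 for WRKY53, with a median of 3.29. WRKY6, WRKY60 and WRKY70 were also higher than WT in the sid2 line. WRKY6, WRKY18, WRKY60 and WRKY70 were lower in the eds1 line than in the PBL19C3A line. Between the sid2 and PBL19C3A lines 0 genes of these 3 lists were called, and between the eds1 line and WT likewise 0. The calls of WRKY40 and WRKY53 in the PBL19C3A line were lost without any 1 of the 4 libraries compared, and that of WRKY70 in the sid2 line without either sid2 library. With so few genes in a list, these counts describe the listed genes alone.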

How the data were processed

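Read counts per gene and FPKM values were deposited by the authors, per the file headers, in tables that pair the WT libraries with those of 1 transgenic line. HISAT2 2.0.4 and the build TAIR10 are named in the submitters' processing notes. The counting tool and the strand setting are not given in the sources used here. Tables were joined by locus, and every library column was matched to a sample by name.

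The edgeR 4.0.16 package (R 4.3.3) was run on the counts of all genes (quasi-likelihood test, TMM scaling, genotype as the only term, all 8 libraries). Genes missing from a table were fitted on the libraries of the other tables. P-values were adjusted by Benjamini-Hochberg over all genes of a comparison, with a threshold of 0.05, and there were 6 comparisons. The filterByExpr filter was used. Alternatives used DESeq2 1.42.0 and limma 3.58.1 on log2(FPKM + 1) and log2(FPKM + 0.1). Levels are the authors' FPKM. Names, gene order, coding sequences and upstream windows came from RefSeq TAIR10.1. The family and the lists were chosen with earlier results of these data known, while the members of the family follow from their locus identifiers.

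Values of each library in the groups compared are given for the 10 members with the largest change in the PBL19C3A line, those that fell there, up to 8 per other comparison, and uncalled members of at least 10 FPKM in WT. Library totals of 37373977 to 51202472 counts bound counting error, while the 2 libraries of a genotype limit precision.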

Additional observations from a re-analysis of the deposited data

How the results depend on the processing

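The counts of called CRK genes kept within 1.5 times of the reported ones under RLE scaling, DESeq2, a mean of at least 5 CPM, only the 2 genotypes compared, and limma on both FPKM scales. Leaving out the low-count filter tested the same genes, since the deposited tables were already restricted, so that setting says nothing about stability. Leaving out 1 library gave 28 to 31 calls in the PBL19C3A line against WT, 13 to 20 in the eds1 line against the PBL19C3A line, 17 to 25 in the sid2 line against WT and 1 in the eds1 line against WT. It gave 2 to 10 calls in the sid2 line against the PBL19C3A line and 5 to 14 in the eds1 line against the sid2 line. The cause of these drops was not tested; each such fit has fewer libraries. With the library number as a replicate block, the calls were 32, 11, 20, 26, 1 and 16, in the order of the PBL19C3A line against WT, sid2 against PBL19C3A, eds1 against PBL19C3A, sid2 against WT, eds1 against WT, and eds1 against sid2. The 16 calls of the last were 15 lower and 1 higher, CRK21. CRK2 gained a call under the block in 3 comparisons, the PBL19C3A line and the sid2 line each against WT, and eds1 against PBL19C3A. The labels do not say that the numbers mark a shared batch, and same-numbered libraries deviated together with correlations from 0.134 to 0.345. Over the named CRK genes, 1809 alternative values kept their call or lack of one, of which 120 came without the low-count filter. A further 23 gained a call, 73 lost one and 0 changed sign with a call. Values without a call could change sign. In the PBL19C3A line against WT, CRK22 reached -0.24 and CRK40 -0.16 when 1 library was left out. The median identity of a protein to its nearest member was 68.5% over aligned residues and 68.0% over the shorter sequence. Depth limits CRK20, CRK37, CRK38 and CRK39 in WT, where at most 8 counts were seen over both libraries.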
